A study of Mus musculus with 7 samples.

Results

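Reporter output of mouse DNase hypersensitive sites was compared between 2 promoters, pR-Ea and pPGK, after division by the plasmid input of each. The units compared were 500 bp bins of the mm9 genome. A bin was kept if it held at least 50 input reads in the pR-Ea file and at least 50 in the pPGK file, which left 31756 of the 2218349 bins with a position in any of the 4 deposited files. The choice used the input alone and no reporter value. The pR-Ea file had 39463 bins that met the minimum and the pPGK file 51137.

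The cells were P5424, an immature mouse T cell line grown in culture. In CapStarr-seq, captured DNA fragments are cloned into a reporter plasmid, and here each promoter had 1 reporter library and 1 input. Their titles name no stimulus, while the treatment entry of all 7 samples reads PMA/Ionomycin. The labels do not say what the promoter called pR-Ea is made of. pPGK is the promoter of phosphoglycerate kinase, a housekeeping gene of glycolysis. With 1 library per promoter there is no replicate check, no p-value is given, and differences are between these libraries.

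In a self-transcribing reporter assay the tested fragment lies within the transcript that the promoter starts, so a fragment that raises transcription gives more of its own RNA. Enhancers are read as fragments with more RNA than their plasmid share, and silencers, which lower transcription, as fragments with less. A silencer can be seen only where the promoter has output to lose, and an enhancer where the promoter leaves room for a gain, so the promoter is part of the measurement. No set of neutral inserts was used as a baseline here, so a bin below input is low relative to the library and is not shown to silence.

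Activity is the share of reporter reads in a bin over its share of input reads, given on the log2 scale with 1 read added to each count. At a mapping quality of at least 30 the pR-Ea file held 51450446 reporter and 18940646 input reads, and the pPGK file 48137015 and 17807985. The median kept bin had 470 reporter and 182 input reads with pR-Ea, and 453 and 184 with pPGK. The pPGK reads lay on fewer distinct positions, with a median of 19 input positions per bin against 54 for pR-Ea. The standard error (SE) of an activity comes from the spread over positions within the bin and is never narrower than counting error. It does not cover variation between cultures, and if a library was read from both ends of each fragment it is too small. A bin was called low or high when its activity was at least 2-fold below or above 1 and the 95% interval excluded equality. It was called higher or lower with pR-Ea by the same rule applied to the difference of the log2 activities.

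Activity had a narrower range with pR-Ea than with pPGK. Its standard deviation over bins was 0.67 with pR-Ea and 0.86 with pPGK on the log2 scale. The median log2 activity was -0.03 with pR-Ea and -0.11 with pPGK, and 5% of bins lay below -1.31 and -1.72. The lowest bin reached -6.59 with pR-Ea and -9.34 with pPGK. This was the same bin, with 4 and 0 reporter reads, so its pPGK value is set by the added read and its input. The highest values were 2.62 and 3.02. Spearman's rho between the promoters was 0.47 across bins, which are parts of the same libraries and no replicates. Among the 4023 bins with at least 500 input reads in both files rho was 0.70.

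Among bins past the 2-fold threshold, low activity was shared by the promoters more often than high activity. With pPGK 4021 bins were low (12.7% of kept bins), with pR-Ea 2727 (8.59%) and with both 1602 (5.04%). The shared bins were 39.8% of those low with pPGK and 58.7% of those low with pR-Ea. High activity past the 2-fold threshold was rarely shared. With pPGK 556 bins were high (1.75%), with pR-Ea 259 (0.816%) and with both 12 (0.0378%), which is 2.16% of the first list and 4.63% of the second. This small overlap depends on the threshold. At 1.5-fold 2687 bins were high with pPGK, 3183 with pR-Ea and 564 with both, which is 21.0% and 17.7% of the lists. The counts also depended on scaling and on how reads were counted. With counts scaled to the reads in kept bins in place of all reads of a file, 3070 bins were low with pPGK, 2703 with pR-Ea and 1438 with both (46.8% and 53.2% of the lists), and 1186 were high with pPGK. With distinct positions counted in place of reads, 883, 581 and 336 bins were low (38.1% and 57.8%) and none was high with both.

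**Figure D1:**
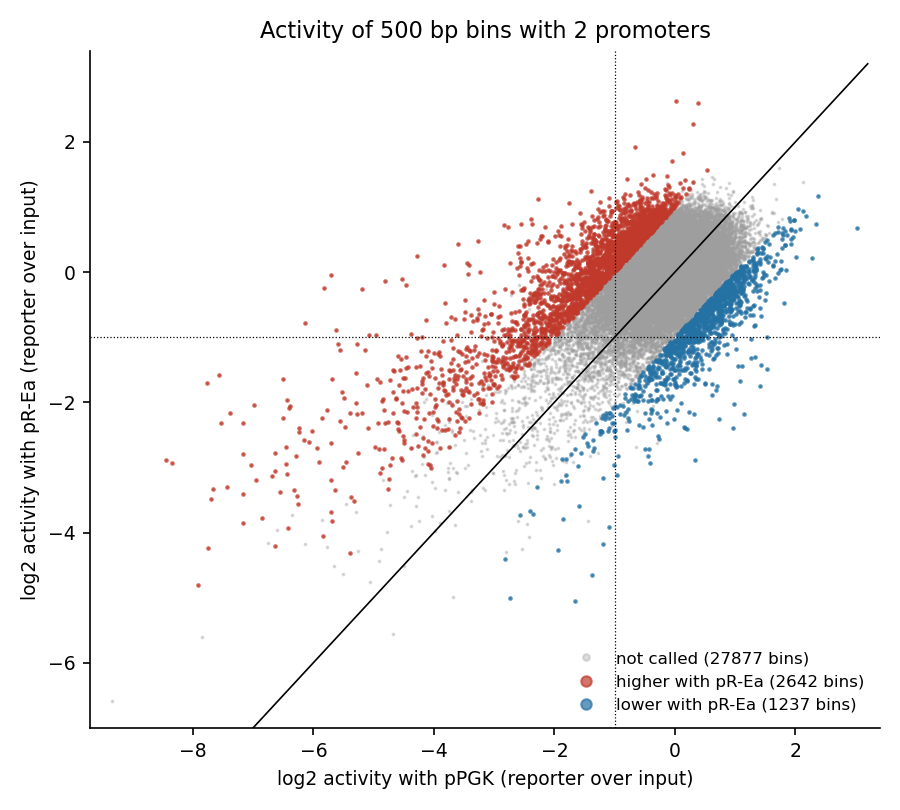
Log2 activity of each of the 31756 kept bins with pPGK (horizontal axis) and with pR-Ea (vertical axis); each point is 1 bin, the diagonal marks equal activity and the dotted lines mark 2-fold below input. Red points are the 2642 bins higher with pR-Ea and blue points the 1237 lower, and the red points reach further from the diagonal (up to 6.06) than the blue points (up to -3.39).

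The overlap of low bins depended on depth and was not symmetric. Among bins with 50 to 99 input reads in the file with fewer, 46.9% of those low with pR-Ea were also low with pPGK. This share was 54.2% at 100 to 199 reads, 65.5% at 200 to 499, 77.3% at 500 to 999 and 87.7% at 1000 or more, where it was 178 of 203 bins. In the other direction the share changed less, from 38.6% at 50 to 99 reads to 46.1% at 1000 or more, 178 of 386 bins. The share of all bins that were low also rose over these classes, from 10.4% to 26.5% with pPGK and from 8.58% to 13.9% with pR-Ea. In the most deeply covered bins a site low with pR-Ea was thus mostly low with pPGK as well, and the reverse held less often. With counts scaled to the kept bins the shares at 1000 reads or more were 83.6% and 53.2%. The lists differ in size, and a longer list holds a larger share of a shorter one.

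**Figure D2:**
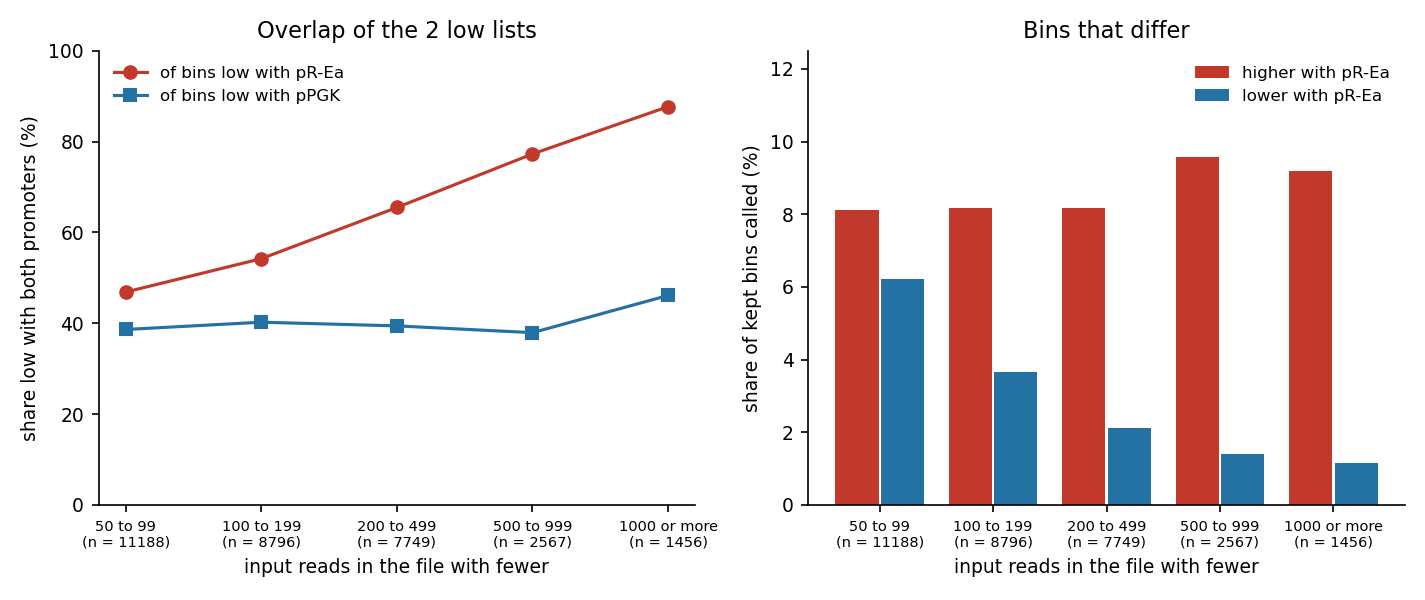
Left, share of bins low with both promoters, in percent of the bins low with pR-Ea (red) and of those low with pPGK (blue); right, percent of kept bins called higher (red bars) or lower (blue bars) with pR-Ea, in both panels by the number of input reads in the file with fewer. The red line climbs from 46.9% to 87.7% while the blue line stays between 37.9% and 46.1%, and the blue bars shrink from 6.23% to 1.17%.

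Sorting bins by their pPGK activity showed how far the low state carried over. The 217 bins below a log2 activity of -4 with pPGK had a median of -4.83 there and of -2.44 with pR-Ea, where 200 of them (92.2%) were low. From -4 to -3 there were 240 bins with a pR-Ea median of -1.77, of which 84.6% were low. From -3 to -2 the median of 725 bins was -1.21 with 64.1% low, and from -2 to -1 that of 2961 bins was -0.60 with 25.9% low. Sorting on the values of 1 library favours extremes of that library, so the same sorting was made by pR-Ea activity. The 28 bins below -4 with pR-Ea had a pPGK median of -4.99 and all of them were low with pPGK. The 99 bins from -4 to -3 had a pPGK median of -3.91, and the 455 bins from -3 to -2 one of -2.38. Sorted this way, the most strongly low bins were at least as low with the other promoter as with the one they were sorted by.

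**Figure D3:**
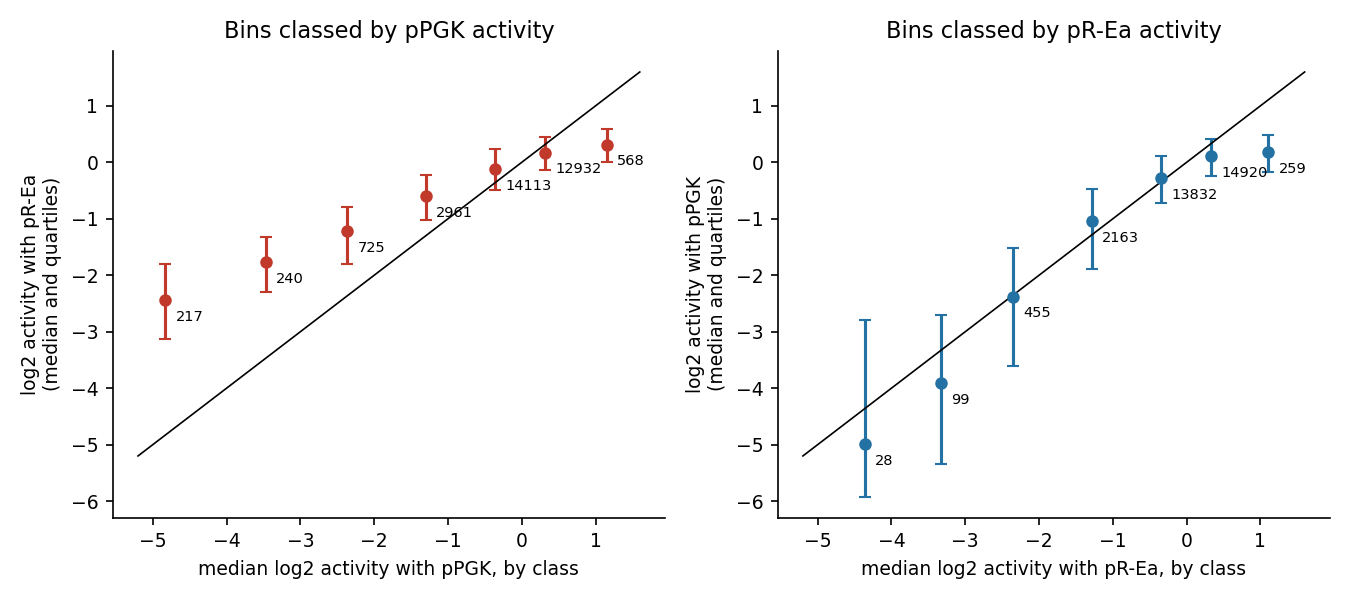
Median and quartiles of log2 activity with the other promoter, for bins sorted into classes by their activity with pPGK (left) or with pR-Ea (right); the line marks equal activity and the numbers count bins. On the left the 3 lowest classes lie above the line, at -2.44 for a pPGK median of -4.83, and on the right the 3 lowest lie on or below it, at -4.99 for a pR-Ea median of -4.36.

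The first 6 bins are given here of those low with both promoters, ranked by the weaker of their bounds. The lowest was chromosome 3, 32782001 to 32782500, with 4 reporter reads against 176 input reads with pR-Ea (log2 activity -6.59, exact 95% counting interval -8.79 to -5.52). With pPGK it had 0 reporter reads against 238 input reads, at least 214-fold below input at a floor of 3 counts in that library. The SCP1 library, made with the promoter SCP1 (super core promoter 1), also had 0 reporter reads there, against 153 input reads. Chromosome 12, 56696501 to 56697000, rested on far more reads. It gave 271 reporter reads from 1995 input reads with pR-Ea and 85 from 1332 with pPGK, log2 activities of -4.32 (SE 0.16) and -5.39 (SE 0.31). Chromosome 9, 27999501 to 28000000, had 104 reads from 643 and 35 from 766, at -4.06 (SE 0.28) and -5.85 (SE 0.55). The bin on the same chromosome from 97271001 to 97271500 had only 3 and 2 reporter reads, with exact intervals of -8.32 to -4.40 and -11.48 to -6.56. On chromosome 13, 63144501 to 63145000, the pR-Ea value was -4.76 (SE 0.63) and the pPGK value -5.07 (SE 0.50), a difference within its error. On chromosome 11, 105818001 to 105818500, 19 reads from 136 gave -4.22 (SE 0.41) with pR-Ea, and 5 from 120 gave -5.77 (SE 0.83) with pPGK. All of these bins were also below input with SCP1, with a median of -3.74, and in the pPGK library labelled PMA_I, at -6.73 to -4.09.

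The bins low with both promoters also stood out by mapping quality. Of the pPGK reporter reads listed there, a median of 17.1% lay at positions below the quality minimum and were not used, against 1.78% over all kept bins. Among the 19151 bins with under 5% of pPGK input reads at such positions, 426 were low with both, 24.4% of those low with pPGK and 41.3% of those low with pR-Ea. With at least 500 input reads as well, the shares were 23.4% and 78.3%. The part of mapping quality in the overlap was not tested further. What lies in these bins was not tested, since no mm9 sequence or annotation was used here.

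By the difference of log2 activities 2642 bins were higher with pR-Ea (8.32% of kept bins) and 1237 lower (3.9%). The balance of the 2 sides depended on the scaling. With counts scaled to the kept bins, which lowers every difference by 0.18, 1750 were higher and 2087 lower, and with reads of any mapping quality 2048 and 2006. With both activities centred to a median of 0 the counts were 2217 and 1567. Higher bins were thus 68.1% of the calls with the whole-file totals and 45.6%, 50.5% and 58.6% under these alternatives. By distinct positions 488 were higher and 205 lower. The bins higher with pR-Ea were more numerous under both scalings where the input was deep. With at least 500 input reads 380 were higher and 53 lower, and 236 and 91 when scaled to the kept bins. The median difference of all bins of that depth was also larger, at 0.27, and 0.09 when scaled to the kept bins. Over all kept bins it was 0.10 and -0.08, so these counts include a general shift of the deep bins. The share called higher varied little with depth, between 8.12% and 9.58%, while the share called lower fell from 6.23% at 50 to 99 input reads to 1.17% at 1000 or more. Bins just inside the input minimum, with 50 to 54 reads, were called higher in 7.98% and lower in 7.05% of cases, and those just outside it, with 45 to 49, in 9.01% and 7.13%.

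Bins higher with pR-Ea were more often low with pPGK than high with pR-Ea. Low calls were also the more common ones over all kept bins, and both calls use the values that form the difference. Of the 2642, 1578 (59.7%) were low with pPGK, against 12.7% of all kept bins. High with pR-Ea were 113 (4.28%), against 0.816% of all kept bins. The 2642 bins had a median log2 activity of 0.14 with pR-Ea and -1.26 with pPGK. Among them 1139 were low with pPGK and not with pR-Ea, 439 were low with both, and 1064 were low with neither. In the 439 the medians were -1.61 with pR-Ea and -3.56 with pPGK. Of the 1237 bins lower with pR-Ea, 464 (37.5%) were low with pR-Ea, against 8.59% of all kept bins. High with pPGK were 237 (19.2%), against 1.75% of all kept bins, and 773 (62.5%) were low with neither. The medians of the 1237 bins were -0.79 with pR-Ea and 0.51 with pPGK.

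The 12 leading bins higher with pR-Ea had differences of 3.69 to 5.67 and came in 2 kinds. Counted by distinct positions in place of reads, the differences of these bins were much smaller, 0.30 to 2.42, and 10 of the 12 kept the call. In 6 of them the site was near input with pR-Ea and far below it with pPGK. Chromosome 9, 108729001 to 108729500, had 440 reporter reads from 191 input reads with pR-Ea and 7 from 167 with pPGK. Its log2 activities were -0.24 (SE 0.16) and -5.83 (SE 0.52), a difference of 5.58 (95% interval 4.51 to 6.66), or 48.0-fold by reads, and 2.42 by distinct positions. Chromosome 19, 4989001 to 4989500, had 819 reads from 311 and 6 from 135, a difference of 5.67 (SE 0.78), and 1.95 by distinct positions. Chromosome 2, 28771501 to 28772000, had 374 from 148 and 17 from 153, a difference of 4.42 (SE 0.41). In each of these 3 bins the pPGK reporter had fewer reads than its input. Chromosome 17, 56381501 to 56382000, differed by 4.26 (SE 0.57), from 662 reads of 280 with pR-Ea and 17 of 146 with pPGK. Chromosome 8, 14072501 to 14073000, differed by 4.67 (SE 0.68), with 152 of 61 and 14 of 154. Chromosome 7, 134093001 to 134093500, had the most pPGK reads of this kind, 54 from 290, against 739 from 252 with pR-Ea, and differed by 3.94 (SE 0.35).

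In the other 6 the site was low with both promoters and much lower with pPGK. Chromosome 11, 3968501 to 3969000, had 196 reporter reads from 537 input reads with pR-Ea and 6 from 900 with pPGK, log2 activities of -2.89 (SE 0.35) and -8.44 (SE 0.81). Chromosome 8, 27577001 to 27577500, rested on the most reads, 306 from 402 and 90 from 1548, at -1.83 (SE 0.13) and -5.52 (SE 0.27). Chromosome 16, 93291501 to 93292000, differed by 5.22 (SE 0.78), and by 1.13 by distinct positions, where it lost the call. With bins shifted by 250 bp, the window that starts at the middle of this bin had a difference of -0.66. Chromosome 13, 52357501 to 52358000, differed by 4.84 (SE 0.78), chromosome 10, 84512001 to 84512500, by 4.94 (SE 0.92) and chromosome 4, 5710501 to 5711000, by 4.48 (SE 0.72). The last had 72.5% of its pPGK reporter reads below the quality minimum. The bin on chromosome 10 had its 70 pR-Ea reporter reads on only 7 positions, and counted by distinct positions its difference was 0.30, also without a call.

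All 12 of these bins were below input in pPGK PMA_I, at -6.76 to -2.95, a library with its own reporter RNA and the same input as pPGK. SCP1, which shares no library with either promoter, had at least 50 input reads in 11 of them and was below input in all 11, at -5.58 to -1.73. In 10 of the 11 the SCP1 value lay between those of the 2 promoters, as the plot of the named bins shows. The bins were ranked by the difference of those values, which leaves a wide space between them, so this count is a description.

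**Figure D4:**
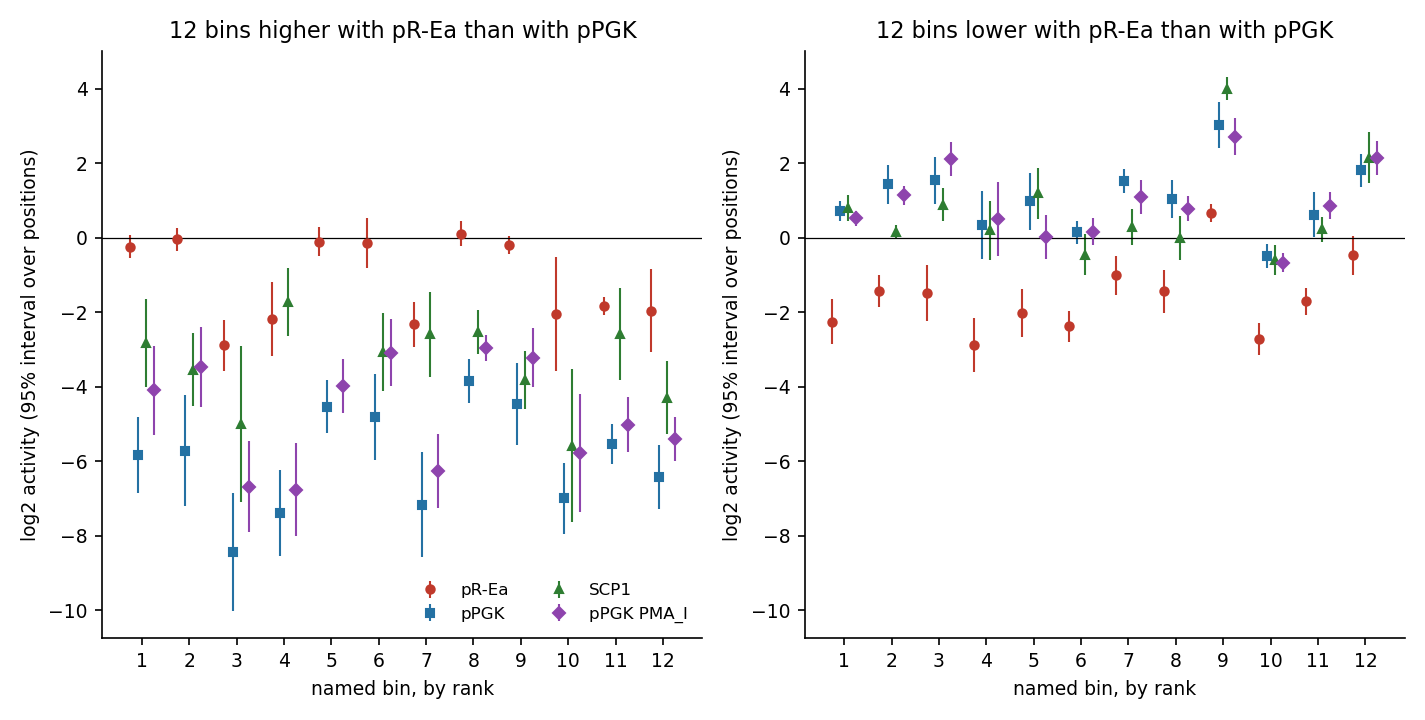
Log2 activity of the 12 leading bins higher (left) and the 12 leading bins lower (right) with pR-Ea than with pPGK, in the pR-Ea (circles), pPGK (squares), SCP1 (triangles) and pPGK PMA_I (diamonds) libraries; bars are 95% intervals over positions, and 1 bin without enough SCP1 input has no triangle. On the left pR-Ea lies between -2.89 and 0.11 and pPGK between -8.44 and -3.84, and on the right pR-Ea lies below the other libraries.

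A separate list holds bins that were low with pPGK and at or above input with pR-Ea. There were 427 of them among the 31756 kept bins, with medians of 0.22 with pR-Ea and -1.27 with pPGK. Of these, 424 were called higher, but membership already sets a difference of at least 1, so that count was nearly fixed in advance. The mirror list, low with pR-Ea and at or above input with pPGK, held 205 bins, and 201 were called lower. The bin on chromosome 7 at 134093001 also led the list of 427. Chromosome 7, 53652001 to 53652500, was high with pR-Ea, with 4667 reporter reads from 790 input reads (1.12, SE 0.07), and low with pPGK, with 423 from 755 (-2.27, SE 0.33). It was also below input with SCP1 (-1.90) and in pPGK PMA_I (-2.27). Chromosome 1, 171447501 to 171448000, had 2552 reads from 765 and 925 from 2077, at 0.30 (SE 0.07) and -2.60 (SE 0.16). Chromosome 2, 155601001 to 155601500, differed by 3.46 (SE 0.39), with 415 reads from 94 and 41 from 105. Chromosome 4, 107463501 to 107464000, differed by 3.52 (SE 0.48), with 151 from 51 and 17 from 70. By distinct positions the 5 differences were 0.95 to 1.67, and the bins on chromosomes 1 and 2 lost the call. In each of these 5 bins SCP1 and pPGK PMA_I were below input, and the SCP1 value lay between those of pR-Ea and pPGK. On chromosome 1 SCP1 was at -0.54, nearer to pR-Ea than to pPGK. The list was chosen by its pR-Ea and pPGK values, and pPGK PMA_I shares the pPGK input, so these positions are a description.

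The 12 leading bins lower with pR-Ea had smaller differences, of -3.22 to -2.23. By distinct positions these were -1.69 to -0.14, and 6 of the 12 lost the call. The 6 are the bins described here on chromosomes 5, 13 (both bins), 15 and 17 and the bin at 131356501 on chromosome 4. Of these, 10 were at -1 or lower with pR-Ea and 11 were above input with pPGK. Chromosome 4, 129374001 to 129374500, had 175 reporter reads from 309 input reads with pR-Ea and 1090 from 243 with pPGK, log2 activities of -2.26 (SE 0.31) and 0.73 (SE 0.14). Chromosome 13, 105398001 to 105398500, had 37 from 102 and 432 from 126, at -2.88 (SE 0.37) and 0.33 (SE 0.47). Chromosome 12, 75929001 to 75929500, had 396 reads from 391 with pR-Ea (-1.42, SE 0.22) and 1401 from 191 with pPGK (1.43, SE 0.27). On chromosome 2, 26226501 to 26227000, 239 from 248 gave -1.49 (SE 0.38) and 658 from 83 gave 1.54 (SE 0.33). Both bins were called low with pR-Ea but high with pPGK. Chromosome 16, 95006501 to 95007000, had 84 from 126 and 350 from 65, at -2.02 (SE 0.32) and 0.98 (SE 0.39). Differences were smaller at chromosome 5, 122635001 to 122635500 (-2.53, SE 0.27), and chromosome 15, 100574501 to 100575000 (-2.53, SE 0.31). By distinct positions these were at -0.65 and -0.14.

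The pattern at chromosome 8, 90579001 to 90579500, was of another kind, since both promoters were above input. It had 1183 reporter reads from 273 input reads with pR-Ea (0.67, SE 0.12) and 3933 from 178 with pPGK (3.02, SE 0.31), and SCP1 had 11306 from 580. It was the highest pPGK bin, and 47.8% of its pPGK reporter reads were below the quality minimum. At chromosome 17, 87602001 to 87602500, pR-Ea gave -0.48 (SE 0.26) and pPGK 1.80 (SE 0.23), with 54.0% of the pPGK reporter reads at 1 position. Chromosome 11, 33990001 to 33990500, differed by -2.48 (SE 0.39), chromosome 13, 23623501 to 23624000, by -2.33 (SE 0.36) and chromosome 4, 131356501 to 131357000, by -2.23 (SE 0.27). These 12 bins had 102 to 479 input reads with pR-Ea and 65 to 243 with pPGK. Over all kept bins the medians were 182 and 184. SCP1 was above input in 9 of the 12 and pPGK PMA_I in 11 of the 12. The SCP1 value lay between those of pR-Ea and pPGK in 8 of the 12. These bins too were ranked by the difference of the 2 promoters, which leaves a wide space between them, so this count is a description.

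Bins high with 1 promoter had medians nearer to input with the other, but most of them were not called different. The 556 bins high with pPGK had a median of 0.32 with pR-Ea, and 237 of them (42.6%) were called lower with it. The 259 bins high with pR-Ea had a median of 0.19 with pPGK, and 113 of them (43.6%) were called higher. The highest pR-Ea bin was chromosome 10, 24741001 to 24741500, with 3209 reporter reads from 191 input reads (2.62, SE 0.20). With pPGK it had 530 from 193, a log2 activity of 0.02 (SE 0.22). Next were neighbouring bins on chromosome 5, from 147804001 to 147804500 and from 147804501 to 147805000, with 2848 reads from 215 and 1627 from 98 with pR-Ea. Their pPGK log2 activities were 0.29 (SE 0.29) and 0.39 (SE 0.41), and the differences 1.99 (SE 0.36) and 2.21 (SE 0.74). These 3 bins were chosen for their pR-Ea values after those had been seen.

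Of the 12 bins high with both, 6 were named. The deepest was chromosome 7, 149853501 to 149854000, with 12540 reporter reads from 2044 input reads with pR-Ea and 34708 from 2479 with pPGK. It was at 1.17 (SE 0.04) and 2.37 (SE 0.08), a difference of -1.20 (SE 0.09) that made it the single bin of the 12 called lower with pR-Ea. Chromosome 2, 147076001 to 147076500, had 4453 from 806 and 2692 from 420, a difference of -0.22 with a 95% interval of -0.57 to 0.13 that includes 0. The interval also included 0 at chromosome 12, 82961001 to 82961500 (-0.70 to 0.16), at chromosome 12, 88784001 to 88784500 (-0.88 to 0.31), and at chromosome 2, 167364501 to 167365000 (-0.66 to 0.27). Chromosome 5, 101296501 to 101297000, differed by -0.73 (SE 0.27), under 2-fold. All 6 were above 0 on the log2 scale with SCP1, at 0.05 to 3.36. The lowest of these SCP1 values, on chromosome 5, was within its error (SE 0.25). None of the 6 kept its call when distinct positions replaced reads. In that setting a position counts once however many reads it holds, and fewer bins of any kind were called high. There were 176 with pPGK and 18 with pR-Ea, against 556 and 259 by reads, so the loss is not particular to these 6.

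SCP1 gave a view of these classes from a library that no call used. Over the 30873 kept bins with at least 50 SCP1 input reads, 13.0% were low with SCP1 and 4.34% high. Among bins low with both pR-Ea and pPGK, 1194 of 1497 (79.8%) were low with SCP1. Among those low with pPGK and not with pR-Ea the count was 972 of 2337 (41.6%), and among those low with pR-Ea and not with pPGK it was 286 of 1060 (27.0%). Of the bins higher with pR-Ea 905 of 2542 (35.6%) were low with SCP1, and of those lower with pR-Ea 129 of 1166 (11.1%). Spearman's rho of SCP1 activity across these bins was 0.59 with pPGK and 0.42 with pR-Ea, given as a description.

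The pPGK PMA_I library, which shares the pPGK input, was low in 13.9% and high in 4.42% of the 31729 bins with enough input. It was low in 1711 of 2416 bins low with pPGK and not with pR-Ea (70.8%) and in 115 of 1124 low with pR-Ea and not with pPGK (10.2%). Of the bins lower with pR-Ea, 312 of 1236 (25.2%) were high in pPGK PMA_I, and of those higher 1 of 2639 was (0.0379%). These shares rest in part on the input that pPGK and pPGK PMA_I have in common.

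**Figure D5:**
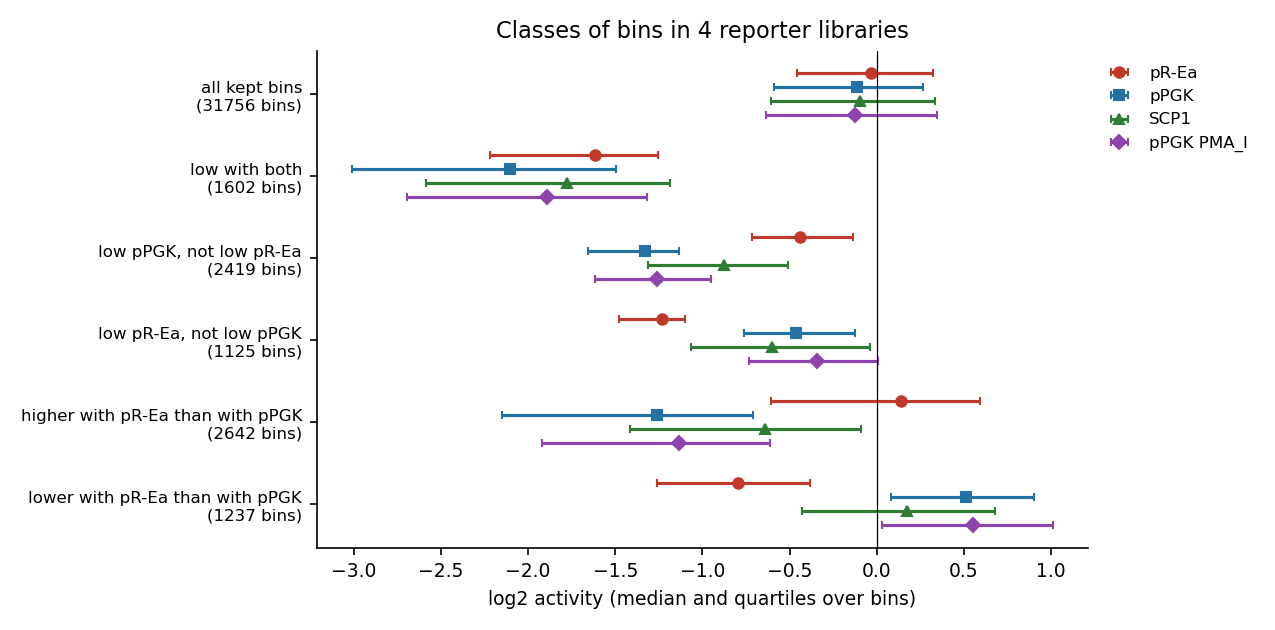
Median and quartiles of log2 activity in the pR-Ea, pPGK, SCP1 and pPGK PMA_I libraries, for all kept bins and for 5 classes called from pR-Ea and pPGK. In the bins low with both the 4 medians lie between -2.10 and -1.61, and in the bins higher with pR-Ea the SCP1 median (-0.64) lies between those of pR-Ea (0.14) and pPGK (-1.26).

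Called bins had neighbours called the same way more often than all kept bins were called, although most neighbours were not called. The 31756 bins formed 22506 runs of adjacent kept bins, of which 15030 were single bins. Over the 9250 adjacent pairs the difference had a Spearman rho of 0.36, a description of bins from shared libraries. A neighbour of a bin higher with pR-Ea was itself higher in 28.7% of cases and lower in 0.921%, where 8.32% and 3.9% of all kept bins were called. For bins lower with pR-Ea a neighbour was lower in 15.9% and higher in 2.90%. Stretches of at least 3 adjacent bins all called one way numbered 17 on the higher side and 1 on the lower.

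These stretches were chosen after their values were seen. In 12 of the 17 on the higher side a median of over 50% of the pPGK reporter reads per bin lay below the quality minimum (51.8% to 89.5%), and in 4 it was under 5%. The part of mapping quality in these stretches was not tested. The longest was 6 bins on chromosome 11, 82744001 to 82747000, with 39136 reporter reads from 9691 input reads with pR-Ea and 28742 from 20295 with pPGK. Its differences ran from 1.31 to 1.85, its activities from 0.55 to 0.59 with pR-Ea and from -1.28 to -0.75 with pPGK. The bins of this stretch had a median of 53.8% of pPGK reporter reads below the quality minimum. Among the 4 with few such reads, the stretch on chromosome 5 from 117400001 to 117401500 had a median of 2.5% of such reads. Its activities ran from -1.78 to -1.05 with pR-Ea, from 2558 reporter and 2873 input reads. With pPGK 715 reporter reads came from 3452 input reads, and the bins differed by 1.29 to 2.36. The stretch on chromosome 15 from 39028501 to 39030000 had a median of 0% and was above input with pR-Ea, at 0.74 to 0.83, and below it with pPGK, at -0.39 to -0.25. The single stretch on the lower side was chromosome 12, 92826501 to 92828000, at -0.50 to -0.13 with pR-Ea and 0.92 to 1.04 with pPGK. It had a median of 0.398% of such reads.

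Called bins differed from all kept bins in depth and in position. Input reads enter the activity and its interval, so they are given as a description. The bins lower with pR-Ea had fewer of them, a median of 120 with pR-Ea and 113 with pPGK against 182 and 184 over all kept bins. Those higher had 188 and 205. Of the bins lower with pR-Ea 57.1% stood alone, with no kept neighbour, against 47.3% of all kept bins and 41.9% of those higher. In runs of at least 4 bins 11.1% were higher and 1.87% lower, and among single bins 7.36% and 4.70%. Where at least 50% of pPGK input reads were below the quality minimum, 12.1% of bins were higher and 3.76% lower, against 7.83% and 3.76% where under 5% were. The difference had a Spearman rho of -0.01 with the ratio of the 2 inputs. Among chromosomes the share higher ranged from 7.28% on X to 9.45% on 15, and the share lower from 2.63% on 15 to 4.97% on 13, so the calls were spread over the genome.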

How the data were processed

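The submitters' processing notes name Bowtie2, SAMtools, bedtools 2.28.0 and build mm9; how they were applied is not given in the sources used here. Each deposited line holds a fragment, a mapping quality score (column 5) and read counts (columns 7 and 8). Column 7 was taken as reporter and column 8 as input. No label states this; the same column 8 stands in both pPGK files. The lowest deposited mapping quality score was 30 in the pR-Ea file and 0 in the pPGK file, where 66.7% of reporter and 58.9% of input reads were used. A 5′ end listed on both strands carried equal deposited counts and was counted once, on the plus-strand fragment. Fragments were binned by midpoint on the assembled chromosomes, and totals kept all reads. Coordinates are mm9 and start at 1.

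Bins are named by fixed rankings on the bound of the 95% interval nearest to 0, 1 per run of adjacent bins, with at least 10 input positions in each file and without chromosome 18. These are the first 12 higher and 12 lower, 6 low and 6 high with both, and 5 low with 1 promoter and at 0 or more with the other. Members, rules and lists were chosen with earlier results of these data known. The interval was tested only on simulated data with independent positions and no variation between libraries. That test cannot show how the interval fares with such variation or with reads from both ends of a fragment. Planned gene and sequence properties were not run, because no mm9 annotation or genome was used here. Exact intervals are Clopper-Pearson intervals of the reporter share, and they cover counting error only, since PCR copies are not independent molecules. Python 3.11.15, numpy 2.4.6, pandas 2.3.3 and scipy 1.17.1 were used.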

Additional observations from a re-analysis of the deposited data

Results flagged for a closer look

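The promoters gave opposite calls in a few bins: 6 were high with pR-Ea but low with pPGK, and 12 were low with pR-Ea but high with pPGK. The 6 were 2.32% of the 259 bins high with pR-Ea, where 12.7% of all kept bins were low with pPGK. The 12 were 2.16% of the 556 bins high with pPGK, where 8.59% of all kept bins were low with pR-Ea. Some of the 12 rested on few pPGK input positions, only 2 at chromosome 7, 17334001 to 17334500. With 1 library per promoter the opposite calls were not tested against replicates. Among the 6, chromosome 7, 53652001 to 53652500, had the most reads. Chromosome 19, 25073501 to 25074000, had 456 reporter reads from 70 input reads with pR-Ea and 58 from 56 with pPGK, where all input reads lay at 1 position. Among the 12, the difference was farthest from 0 at chromosome 11, 68084001 to 68084500 (-3.32, SE 0.53), with 32 pR-Ea reporter reads, and next at chromosome 7, 67990001 to 67990500 (-3.15, SE 0.85).

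Of the pPGK reporter reads 33.3% lay at positions below the mapping quality minimum and outside the comparison, as did 41.1% of the pPGK input reads. The pR-Ea file lists no such positions, so they could not be compared.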

How the results depend on the processing

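The counts moved with several choices, and the cause was not tested. Without a quality filter 1111 bins were high with pPGK, 20 high with both and 2006 lower with pR-Ea. By distinct positions rho was 0.28, 883 bins were low with pPGK, 581 with pR-Ea and 336 with both, 176 were high with pPGK, 18 with pR-Ea and 0 with both, and 488 were higher and 205 lower, among them 280 and 100 of the bins called from reads. Centred to a median of 0, 923 were high with pPGK and 26 with both. Scaled to kept bins, 1186 were high with pPGK, 24 with both, 1750 were higher and 2087 lower. With at least 100 input reads, fewer bins by construction, rho was 0.54, 1767 were low with pR-Ea, 260 high with pPGK, 113 with pR-Ea and 6 with both, and 1733 were higher and 540 lower. With at least 20, rho was 0.36, 6556 were low with pPGK, 5255 with pR-Ea and 2442 with both, 1579 were high with pPGK, 850 with pR-Ea and 43 with both, and 4551 were higher and 3490 lower. With at least 500, chosen after seeing the data, rho was 0.70, 879, 445 and 365 were low, 49, 18 and 1 were high, and 380 were higher and 53 lower. At a 1.5-fold threshold 7095, 5955 and 3413 were low, 2687, 3183 and 564 were high, and 5616 were higher and 3026 lower. Bins of 1000 bp left 7 high with both. Without the top position of each bin 156 were high with pR-Ea. On odd positions 330 were high with pPGK, 166 with pR-Ea and 669 were lower, and on even positions 340 were high with pPGK and 657 lower. By reporter reads alone, without division by input, 5163 were higher and 5208 lower.

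Of the counts under all alternatives 111 stayed near their value and 60 moved. Of 807 values of named bins 780 kept direction and call, 26 lost the call and 1 changed sign, chromosome 16 at 93291501, at -0.66 with shifted bins. Several settings could not remove a call: the 1.5-fold threshold, counting error only and the other input minimums. Some bins stand on more than 1 list, and bins without enough input under a setting were left out. By distinct positions 29 values kept the call and 17 lost it, and with shifted bins 20 kept it and 2 lost it. No paired analysis was possible because each promoter had 1 library. Depth limits the bins with few reads, where the interval is wide.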
